A study of Mus musculus with 9 samples.

Results

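Splicing factors and spliceosome proteins were examined in kidneys of young and old mice as a set of 112 genes, out of 13081 genes in the table. Members were taken by symbol and not by measured values. They comprised 10 SR proteins (Srsf), 20 heterogeneous nuclear ribonucleoproteins (hnRNPs), 49 core proteins of the small nuclear ribonucleoproteins (snRNPs) and their partners (12 Snrp, 13 Lsm, 11 Sf3 and U2af, 13 Prpf) and 33 RNA-binding motif genes (Rbm). Kidneys of wild-type mice (C57BL/6, per the study's methods) were profiled by RNA sequencing at 3 months (young, n = 4 libraries) and 16 months (old, n = 5 libraries). Age is the only difference between the groups that the labels give, and the sex of these mice was not stated in the sources used here. All young libraries bear one name prefix and all old libraries another, and what else may differ with the prefix, such as preparation or sequencing run, cannot be told apart from age. Reverse transcription was primed on poly(A) tails and reads lie near the 3′ ends of transcripts, so the libraries count transcripts per gene and do not show which exons were joined.

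The spliceosome removes introns from precursor messenger RNA. Its snRNPs are built of a small nuclear RNA, a ring of Sm or LSm proteins and particle-specific proteins, and it assembles anew on each intron when U1 recognises the 5′ splice site, U2AF and U2 the 3′ end of the intron, and the tri-snRNP joins. SR proteins mostly promote the use of exons, hnRNPs often repress it, and Rbm genes form a mixed group that includes spliceosome subunits, regulators of alternative exons and proteins with other roles in RNA metabolism.

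Promoter sequence is shown for 6 members with large changes, so that the letters can be read beside the values below. They are the members named by rule (the largest changes in each class) for which the 120 bases before the RefSeq start (GRCm38.p6) hold no annotated exon. Capitals mark matches to the CCAAT box (letters CCAAT, or where it lies on the opposite strand ATTGG) and to an ETS-type motif (CCGGAAG), which do not overlap in these windows. Each sequence is given 5′ to 3′ on the strand of its gene.
Srsf9: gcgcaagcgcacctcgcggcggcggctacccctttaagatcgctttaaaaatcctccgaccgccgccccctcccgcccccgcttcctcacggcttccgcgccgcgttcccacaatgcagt
Hnrnpr: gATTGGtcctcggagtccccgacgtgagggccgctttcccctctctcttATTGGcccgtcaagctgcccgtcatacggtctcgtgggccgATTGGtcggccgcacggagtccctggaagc
Snrpa: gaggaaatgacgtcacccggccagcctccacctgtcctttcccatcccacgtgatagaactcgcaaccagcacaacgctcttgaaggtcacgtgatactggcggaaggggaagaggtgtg
Lsm6: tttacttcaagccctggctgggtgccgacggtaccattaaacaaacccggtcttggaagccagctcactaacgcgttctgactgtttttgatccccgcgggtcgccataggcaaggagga
Prpf19: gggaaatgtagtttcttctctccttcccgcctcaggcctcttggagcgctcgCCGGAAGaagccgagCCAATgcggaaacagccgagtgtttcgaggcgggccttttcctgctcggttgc
Prpf4: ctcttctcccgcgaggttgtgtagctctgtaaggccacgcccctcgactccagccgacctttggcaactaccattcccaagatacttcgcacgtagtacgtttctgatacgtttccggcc
The promoters belong to Srsf9 (chr5:115327057-115327176, plus strand), Hnrnpr (chr4:136310822-136310941, plus strand), Snrpa (chr7:27196272-27196391, minus strand), Lsm6 (chr8:78821153-78821272, minus strand), Prpf19 (chr19:10895111-10895230, plus strand) and Prpf4 (chr4:62408663-62408782, plus strand). In the 250 bases before the start, read on both strands, the ETS-type motif was present in 22 of 94 members with a promoter in RefSeq (23.4%), beside 13.9% of 9620 genes tested and 7.05% of all 27025 promoters. The CCAAT box was present in 44 of 94 members (46.8%), beside 35.8% of genes tested. A TATAAA box was found in 9 of 94 (9.57%), beside 6.35% of genes tested, and the NRF1-type motif GCGCATGCG in 2 of 94 (2.13%), beside 3.00%. Members that were higher in old kidneys held the ETS-type motif in 6 of 28 promoters (21.4%) and those that were lower in 9 of 34 (26.5%). Among the 6 promoters printed, that of Hnrnpr, higher in old kidneys, held 3 CCAAT boxes, and that of Prpf19, lower in old kidneys, held 1 ETS-type motif and 1 CCAAT box. These matches describe letters and were not tested as binding sites.

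The table held 4486406 to 6355095 reads per library, and values are normalised read counts, read counts divided by 1 size factor per library. All 8 kidney epithelial markers were present in every library, with a lowest value of 334 normalised read counts. Of these, 4 were higher in old kidneys and 1, Kap, was lower. The proximal tubule gene Kap made up most of their summed level, which was 177660 to 209510 in young and 125930 to 171090 in old libraries, and the other 7 markers summed to 35099 to 36611 and 40307 to 48040, higher without overlap. Of the markers of other cell types, 5 of 9 immune markers tested were higher in old kidneys (summed level 1254 to 1482 in young, 1817 to 2675 in old), 3 of 5 endothelial markers were higher (888 to 943 and 1180 to 1410.0) and 4 of 5 fibroblast and matrix markers were lower (1501 to 1880.3 and 778 to 1345, which overlapped without Col1a2, at 764 to 979.5 and 428 to 865). Of the podocyte markers 3 of 5 were higher and 1 lower, and 1 of 3 adipocyte markers tested was lower, with 0 reads for some adipocyte and immune markers in single libraries. Mitochondrial genes took 27.0 to 29.7% of reads in young and 35.8 to 38.1% in old libraries, and mitochondrial ribosomal RNA 2.98 to 4.46% and 21.8 to 25.4%. The part of these shifts in the results below was not tested, and in a tissue sample fewer cells of a type and less RNA per cell cannot be told apart.

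Splicing genes moved in both directions with age. By limma on log2(normalised read count + 1), 76 of the 111 members tested had an adjusted p under 0.05 (68.5%), of which 33 were higher (29.7%) and 43 lower (38.7%) in old kidneys. Across all 12667 genes tested, 59.7% were called, 29.2% higher and 30.5% lower. The share of members that were higher was thus near that of all genes and the share that were lower was above it, a difference that was not tested. With a change of at least 1.5-fold, 54 members were called (48.6%, against 45.1% of all genes), 23 higher and 31 lower. The values of young and old libraries did not overlap in 70 members (63.1%, against 49.0%). The median log2 fold change of members was -0.11, against -0.00 over all genes. With libraries scaled to equal totals of reads outside mitochondrial genes (non-mitochondrial scaling below), it was 0.03, against 0.13 over all genes. Rbm41 was the one member with too few reads to be tested, with 4.09, 1.94, 3.92 and 2.72 normalised read counts in young and 10.6, 18.6, 12.2, 0 and 8.49 in old libraries.

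**Figure D1:**
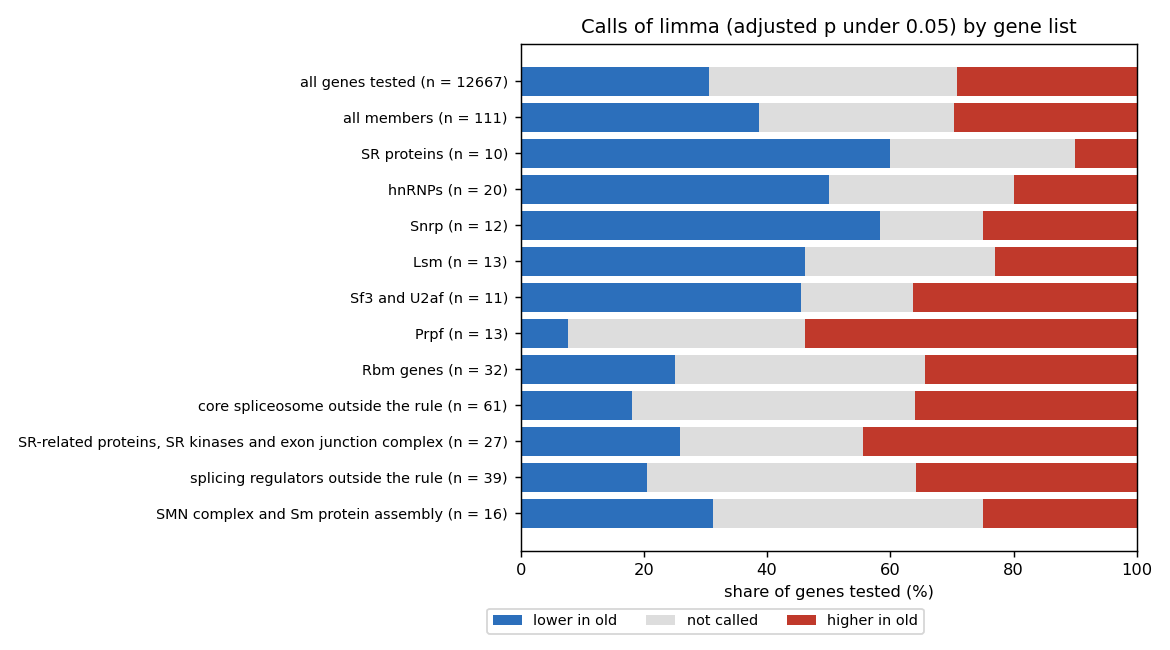
Share of genes called higher (red), lower (blue) or not called (grey) in old kidneys by limma at an adjusted p under 0.05, for all genes tested, for members by class and for the other splicing lists (x axis, share of genes tested in percent). SR proteins, hnRNPs and Snrp genes have the widest lower shares, and Prpf genes have 7 of 13 higher and 1 of 13 lower.

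Counts differed between the classes. SR proteins had 1 member higher and 6 lower of 10, hnRNPs 4 higher and 10 lower of 20, core snRNP proteins 17 higher and 19 lower of 49, and Rbm genes 11 higher and 8 lower of 32 tested. The shares called were thus 70.0, 70.0, 73.5 and 59.4%, against 59.7% of all genes tested (29.2% higher and 30.5% lower). The median log2 fold changes of the 4 classes were -0.29, -0.22, -0.05 and 0.10. With non-mitochondrial scaling, the medians of SR proteins, hnRNPs and Rbm genes kept their sign (-0.14, -0.08 and 0.24), while that of core snRNP proteins was 0.09. The median over all genes was 0.13 there. With a trend with transcript length removed from each library (length trend removed below), the medians were -0.27, -0.18 and 0.01 for SR proteins, hnRNPs and Rbm genes and 0.03 for core snRNP proteins. Differences between classes were not tested.

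**Figure D2:**
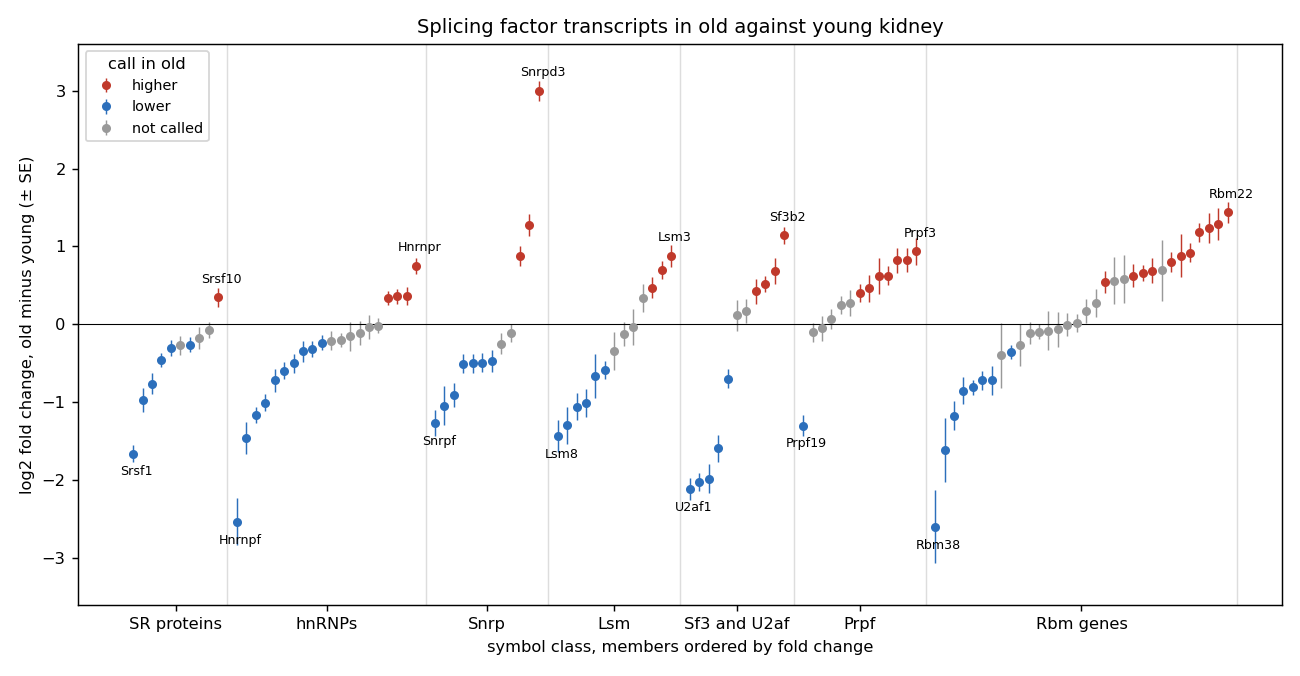
log2 fold change (old minus young, on log2(normalised read count + 1)) of the 111 members tested, ordered within each symbol class on the x axis; points are limma estimates, bars ± SE, and colours give the call. Values run from -2.60 for Rbm38 to 3.00 for Snrpd3, and every class holds members on both sides of 0.

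Among the SR proteins, which bind exons through RNA recognition motifs and contact the spliceosome through arginine- and serine-rich tails, Srsf1 changed most. Srsf1, the classical SR protein ASF/SF2 (chromosome 11, 88047373 to 88053755, GRCm38), was at 395, 438, 474 and 478 in young and 140.3, 151, 147, 122 and 141 in old libraries. The groups were far apart, with the highest old library below the lowest young one. The mean fell from 446 ± 38.6 (SD, n = 4) to 140.3 ± 11.0 (SD, n = 5) (log2 fold change -1.66 ± 0.11 (SE), adjusted p = 4.68e-10 by limma). Srsf9 was at 381, 319, 439 and 427 in young and 202, 278, 208, 186 and 142 in old libraries (log2 fold change -0.97 ± 0.15 (SE), adjusted p = 2.73e-05 by limma), again without overlap. Srsf4 (log2 fold change -0.76), Srsf5 (-0.46), Srsf6 (-0.30) and Srsf2 (-0.26) were also lower, and in each of them all old libraries lay under all young ones. Srsf2, which binds exonic enhancers, had a narrow separation, with 1273, 1462, 1408 and 1275 in young and 1059.7, 1251, 1089, 1067 and 1196 in old libraries (adjusted p = 0.0198 by limma). Its call was lost with non-mitochondrial scaling (adjusted p = 0.276 by limma) and when a transcript length trend was removed (0.989). It was also lost without young replicate 2 (adjusted p = 0.0763 by limma) or young replicate 3 (0.0626). The call for Srsf6 was lost with non-mitochondrial scaling (adjusted p = 0.189 by limma).

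Srsf3, Srsf7 and Srsf11 were not called. Srsf3, which regulates exon use and messenger RNA export, was at 358, 373, 401 and 338 in young and 388, 328, 264, 269.6 and 286 in old libraries, and the groups overlapped (log2 fold change -0.27 ± 0.12 (SE), adjusted p = 0.0587 by limma). In 5 of 23 alternatives Srsf3 was called lower, namely with libraries scaled to the table total, with the length trend or a trend with GC content removed, and without old replicate 1 or old replicate 2 (adjusted p down to 0.0109 by limma). Of the 50-base sequences in its last 500 bases, 24.4% occur in another gene. Srsf7 had a log2 fold change of -0.17 and Srsf11 one of -0.07. Srsf10, a splicing repressor when dephosphorylated, was the SR protein called in the other direction, with 183, 209, 230.4 and 180.2 in young and 286, 229.7, 259.6, 227 and 273 in old libraries (log2 fold change 0.35 ± 0.12 (SE), adjusted p = 0.0166 by limma). The highest young library was above 2 of the old libraries, and the call was lost without young replicate 1 or young replicate 4 (adjusted p = 0.0600 and 0.0599). Splicing of SR genes through poison exons, by which these proteins limit their own level, could not be read from these data.

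The hnRNPs, abundant proteins that coat nascent transcripts, divided into 10 genes that were lower in old kidneys, 4 that were higher and 6 that were not called. Hnrnpf, which binds G-rich RNA, was at 777, 803, 926 and 917 in young and 69.5, 345, 223, 98.9 and 126 in old libraries. All old libraries were under all young ones, but they spread widely, with a coefficient of variation of 65.0%. The mean fell from 856 ± 76.7 (SD, n = 4) to 172 ± 112 (SD, n = 5) (log2 fold change -2.54 ± 0.30 (SE), adjusted p = 8.53e-07 by limma). Its relative Hnrnph3 was at 106, 144, 122 and 98.7 in young and 38.9, 40.5, 41.6, 28.9 and 66.8 in old libraries (log2 fold change -1.45 ± 0.21 (SE), adjusted p = 6.95e-06 by limma). The other F/H genes did not pass the test, Hnrnph1 at -0.04 and Hnrnph2 at -0.15 on the log2 scale, and so the F/H family held 2 members that fell and 2 that were not called.

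Hnrnpa2b1, an A/B family member which packages nascent RNA with Hnrnpa1 and reads N6-methyladenosine-dependent sites, was at 744, 806, 776 and 931 in young and 322, 400.4, 385, 331 and 368 in old libraries (log2 fold change -1.17 ± 0.10 (SE), adjusted p = 1.89e-08 by limma). Hnrnpa1, a repressor of exons through intronic and exonic silencers, was at 136, 160.3, 118 and 155 in young and 91.9, 87.5, 76.1, 72.8 and 103 in old libraries (log2 fold change -0.72 ± 0.15 (SE), adjusted p = 0.000383 by limma). In both genes every old library was under every young one. Hnrnpa3 (-0.60) and Hnrnpa0 (-0.32) fell too, while Hnrnpab, at -0.20 with an adjusted p of 0.059 by limma, did not pass. The call for Hnrnpa0 was lost with non-mitochondrial scaling (-0.17, adjusted p = 0.155 by limma), with the GC trend removed (-0.21, 0.0718) and with the length trend removed (-0.15, 0.185). Hnrnpa1 shares 28.2% of its 50-base sequences with other genes, but none in its last 500 bases.

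Hnrnpl, which binds CA repeats, fell by 1.01 on the log2 scale without overlap between the groups, and Hnrnpd, which binds AU-rich RNA, fell by 0.50. Hnrnpk, which binds C-rich RNA, was at 1748, 1796, 1815 and 1849 in young and 1658, 1782, 1591, 1317 and 1362 in old libraries. Old replicate 2 lay above the lowest young library, so the groups overlapped, and the test was narrowly passed (log2 fold change -0.23 ± 0.10 (SE), adjusted p = 0.0484 by limma). The call for Hnrnpk was lost in 10 of 22 alternatives, among them edgeR (adjusted p = 0.0715) and DESeq2 (0.0539). Hnrnpc, Hnrnph1, Hnrnph2, Hnrnpll and Hnrnpu, the last of which organises chromatin as well as RNA, were not called. Hnrnpc was called lower without old replicate 2 (-0.30, adjusted p = 0.0290 by limma).

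The hnRNP genes that rose numbered 4. Hnrnpr was at 209, 229, 222 and 196 in young and 334, 366, 357, 337 and 412 in old libraries (log2 fold change 0.75 ± 0.10 (SE), adjusted p = 5.95e-06 by limma). Every old library was above every young one. Hnrnpul2 was at 182, 184, 203 and 209 in young and 253, 235, 240.3, 228 and 303 in old libraries (log2 fold change 0.37 ± 0.11 (SE), adjusted p = 0.00983 by limma). Hnrnpul1 (0.36) and Hnrnpm (0.34) rose without overlap as well. Hnrnpr has the longest annotated transcript of the members (21452 bases), and its value became -0.087 when a transcript length trend was removed from each library.

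The Snrp genes encode Sm ring proteins and proteins specific to U1 or U2. Snrpd3, the Sm-D3 subunit of the ring (chromosome 10, 75517551 to 75537381, GRCm38), had the largest rise of all members. It was at 127, 107, 129 and 155 in young and 1061, 835, 898, 1256 and 1183 in old libraries normalised read counts. The lowest old library was above the highest young one by a wide margin, and the mean rose 8.08-fold from 129.5 ± 19.7 (SD, n = 4) to 1046 ± 180.3 (SD, n = 5) (log2 fold change 3.00 ± 0.13 (SE), adjusted p = 2.46e-12 by limma). None of its 50-base sequences occurs in another gene of the annotation, and it overlaps no gene on its strand.

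Its partners in the same ring of 7 did not follow it. Snrpf was at 219, 272, 272 and 306 in young and 137, 75.5, 98.4, 111 and 140.0 in old libraries (log2 fold change -1.27 ± 0.16 (SE), adjusted p = 2.52e-06 by limma). Snrpd1 was at 214, 187, 251 and 215 in young and 128, 147, 108, 82.1 and 117 in old libraries (log2 fold change -0.91 ± 0.15 (SE), adjusted p = 4.96e-05 by limma). Both were lower in every old library than in any young one. Snrpb (-0.51), Snrpe (-0.49) and Snrpg (-0.47) also fell, with overlap between the groups in Snrpg alone. Snrpd2, which pairs with Snrpd1 in the ring, was not called (-0.11). Thus 1 ring gene was higher, 5 were lower and 1 was not called. When a transcript length trend was removed, the calls for Snrpb (-0.23, adjusted p = 0.0975 by limma), Snrpe (-0.084, 0.538) and Snrpg (-0.079, 0.641) were lost, and the median over the Snrp genes went from -0.48 to -0.081. The call for Snrpg was also lost with non-mitochondrial scaling (adjusted p = 0.0637 by limma). Snrpn, an imprinted gene that encodes a variant of the ring protein SmB, was at 107, 104, 116 and 109 in young and 109.6, 85.3, 96.3, 92.3 and 77.4 in old libraries with overlapping groups (log2 fold change -0.25 ± 0.14 (SE), adjusted p = 0.135 by limma). Snrpn shares exons with a neighbouring transcript on its strand, and the reads of the pair could not be separated here.

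Snrpa, the A protein of U1 that binds a stem loop of its RNA, was at 75.3, 62.2, 64.7 and 80.6 in young and 187, 194, 133, 185 and 167 in old libraries (log2 fold change 1.27 ± 0.14 (SE), adjusted p = 5.05e-07 by limma). Snrpc, the C protein that helps U1 hold the 5′ splice site, was at 159, 123, 141 and 156 in young and 314, 219.9, 241, 307 and 263 in old libraries (log2 fold change 0.88 ± 0.13 (SE), adjusted p = 1.12e-05 by limma). Both rose without overlap, as did the U1 70K gene Snrnp70 (log2 fold change 0.88), whose symbol the rule does not take. Of the U2 proteins among the Snrp genes, Snrpa1 (-1.04) and Snrpb2 (-0.50) fell, both without overlap. The call for Snrpb2 was lost with the length trend removed (-0.26, adjusted p = 0.0759 by limma).

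The LSm proteins form a ring on U6 RNA (Lsm2 to Lsm8) and, with Lsm1 in place of Lsm8, a cytoplasmic ring that acts in messenger RNA decay. Lsm8, the subunit particular to the nuclear ring, was at 87.6, 124, 136 and 126 in young and 49.5, 43.8, 59.8, 41.0 and 26.5 in old libraries (log2 fold change -1.43 ± 0.21 (SE), adjusted p = 9.98e-06 by limma). Lsm1, its cytoplasmic counterpart, was at 56.5, 53.4, 45.1 and 61.6 in young and 14.1, 35.0, 20.3, 21.5 and 20.2 in old libraries (log2 fold change -1.30 ± 0.24 (SE), adjusted p = 0.000145 by limma). Both fell, and neither overlapped. Among the shared subunits Lsm6 was at 180.2, 175, 191 and 170.2 in young and 113, 79.9, 109, 56.0 and 83.8 in old libraries (log2 fold change -1.05 ± 0.17 (SE), adjusted p = 3.74e-05 by limma), Lsm4 fell by 0.59 on the log2 scale and Lsm5 by 0.67. The call for Lsm4 was lost with the length trend removed (-0.19, adjusted p = 0.161 by limma). The call for Lsm5 was the least firm of the Lsm calls, since its groups overlapped and it was lost in 12 of 22 alternatives.

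Lsm3 and Lsm7 went the other way. Lsm3 was at 90.1, 89.4, 78.4 and 104 in young and 198, 133, 170.4, 157 and 182 in old libraries (log2 fold change 0.88 ± 0.14 (SE), adjusted p = 2.83e-05 by limma). Lsm7 was at 195, 171, 198 and 179 in young and 365, 293, 282, 292 and 284 in old libraries (log2 fold change 0.70 ± 0.11 (SE), adjusted p = 2.83e-05 by limma). In both genes every old library was above every young one, and 21.3% of the 50-base sequences in the last 500 bases of Lsm7 occur in another gene. Lsm2 was not called, and its direction changed between alternatives (-0.19 to 0.27 on the log2 scale). Outside the rings, Lsm14a, a component of cytoplasmic RNA granules, fell by 1.01, Lsm12 rose by 0.47 with overlapping groups, and Lsm10 and Lsm11, which replace Sm proteins in the U7 particle that processes histone messages, were not called (0.34 and -0.34). With the length trend removed Lsm11 was called lower (-0.64, adjusted p = 0.0296 by limma).

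**Figure D3:**
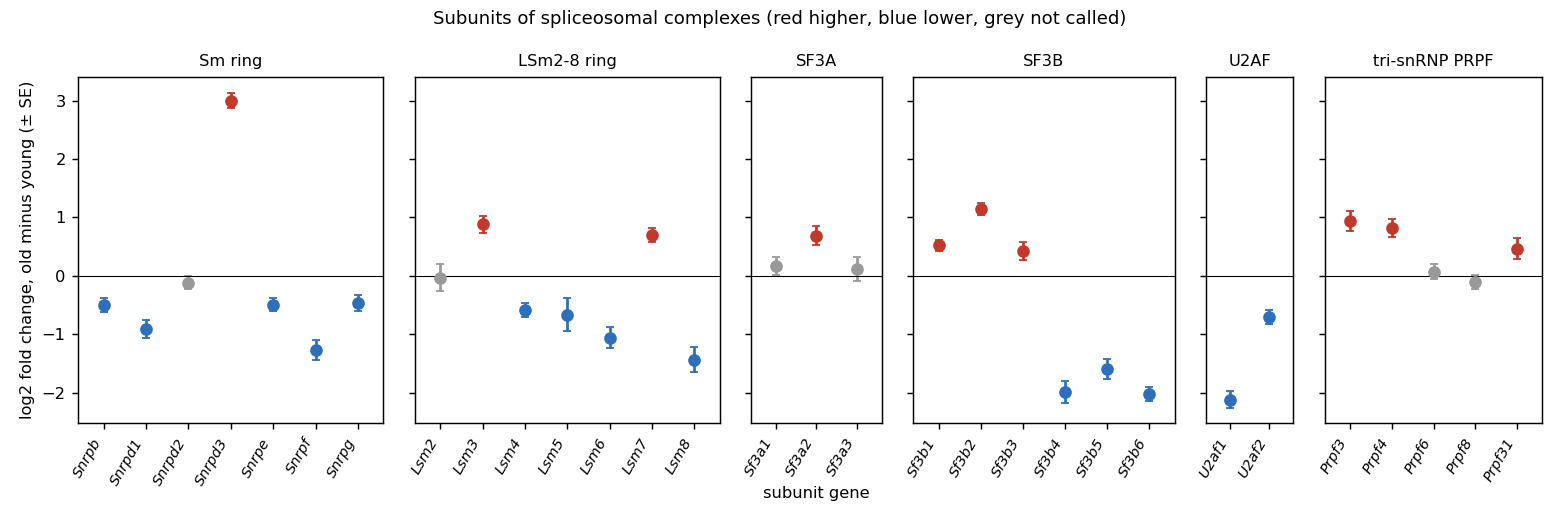
log2 fold change (old minus young, ± SE by limma) of each subunit of the Sm ring, the LSm2-8 ring, SF3A, SF3B, U2AF and the PRPF proteins of the tri-snRNP; red points were higher, blue lower and grey not called. Both rings and SF3B hold subunits called in opposite directions, from -1.27 (Snrpf) to 3.00 (Snrpd3) in the Sm ring.

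SF3B, the part of U2 that grips the branch point, split by subunit. Sf3b2 was at 786, 767, 775 and 739 in young and 1520.5, 1428, 1600.3, 2065 and 1949 in old libraries (log2 fold change 1.14 ± 0.11 (SE), adjusted p = 4.87e-08 by limma). Sf3b1, the subunit that encloses the branch helix, was at 237, 273, 269.6 and 239 in young and 355, 361, 375, 355 and 378 in old libraries (log2 fold change 0.52 ± 0.10 (SE), adjusted p = 0.000164 by limma). Sf3b3 rose by 0.42 with overlapping groups, a call lost in 8 of 22 alternatives. All 3 larger subunits were thus higher in old kidneys.

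The 3 smaller subunits in the rule fell. Sf3b6, the p14 protein that sits at the branch point (chromosome 12, 4817544 to 4827659, GRCm38), was at 554, 598, 559 and 516 in young and 118, 159, 125, 143 and 141 in old libraries (log2 fold change -2.02 ± 0.11 (SE), adjusted p = 4.03e-11 by limma). Sf3b4 was at 178, 196, 189 and 220.0 in young and 43.6, 80.9, 45.6, 36.4 and 46.7 in old libraries (log2 fold change -1.98 ± 0.19 (SE), adjusted p = 5.26e-08 by limma). Sf3b5 was at 265, 249, 234 and 239 in young and 57.8, 128, 88.2, 70.9 and 76.4 in old libraries (log2 fold change -1.59 ± 0.17 (SE), adjusted p = 3.38e-07 by limma). None of these groups overlapped, and Phf5a, the remaining SF3B subunit and outside the rule, was lower too (-0.46), a call lost with the length trend removed (-0.18, adjusted p = 0.277 by limma). Of the 50-base sequences in the last 500 bases of Sf3b4, 11.8% occur in another gene, and Sf3b4 overlaps a gene on its strand.

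SF3A and U2AF differed as well. Sf3a2 was at 49.1, 48.6, 45.1 and 52.5 in young and 64.8, 71.1, 74.0, 95.1 and 96.5 in old libraries (log2 fold change 0.69 ± 0.17 (SE), adjusted p = 0.00167 by limma), while Sf3a1 (0.17) and Sf3a3 (0.12) were not called. U2af1, the small subunit that reads the AG at the 3′ splice site, was at 451, 454, 475 and 489 in young and 103, 123, 136, 104 and 78.5 in old libraries (log2 fold change -2.12 ± 0.14 (SE), adjusted p = 3.65e-10 by limma). Its values were low in every old library, but 71.2% of the 50-base sequences in its last 500 bases occur in another gene, so reads from a near-identical copy could be counted with it or lost. U2af2, the large subunit that binds the polypyrimidine tract, was at 717, 904, 999 and 991 in young and 513, 701, 539.5, 545 and 483 in old libraries (log2 fold change -0.70 ± 0.12 (SE), adjusted p = 6.5e-05 by limma). Both U2AF subunits were lower without overlap.

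The Prpf genes, named after yeast mutants in precursor messenger RNA processing, were the class with the largest share of rises, 7 of 13, and a median log2 fold change of 0.40. Prpf3 and Prpf4, which bind each other in the U4/U6 particle, rose together. Prpf3 was at 35.2, 43.7, 33.3 and 41.6 in young and 69.5, 70.0, 72.0, 68.1 and 93.4 in old libraries (log2 fold change 0.94 ± 0.17 (SE), adjusted p = 0.000128 by limma). Prpf4 was at 59.0, 64.1, 71.6 and 69.7 in young and 124, 104, 96.3, 151 and 119 in old libraries (log2 fold change 0.82 ± 0.15 (SE), adjusted p = 0.000149 by limma). Neither pair of groups overlapped. Prpf40b (0.82), the kinase Prpf4b (0.63), Prpf38a (0.62) and Prpf31 (0.47), mutated in retinitis pigmentosa, were higher too. The call for Prpf31 was lost without old replicate 5 or young replicate 3, and that for Prpf38a without old replicate 2, old replicate 4, young replicate 3 or young replicate 4.

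Prpf19, the ubiquitin ligase at the centre of the complex that activates the spliceosome, was the Prpf gene that fell. It was at 201, 245, 190.2 and 209 in young and 101, 85.3, 75.0, 80.2 and 83.8 in old libraries (log2 fold change -1.30 ± 0.13 (SE), adjusted p = 1.28e-07 by limma). Every old library was under every young one. Prpf8, the large scaffold at the catalytic centre, was at 323, 310.0, 332 and 387 in young and 244, 365, 322, 354 and 297 in old libraries with overlapping groups (log2 fold change -0.10 ± 0.12 (SE), adjusted p = 0.483 by limma). With the length trend removed Prpf8 was called lower (-0.48, adjusted p = 0.00295 by limma). Prpf6, Prpf18, Prpf38b and Prpf39 were not called, with log2 fold changes of -0.05 to 0.28.

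The Rbm genes held 11 that rose, 8 that fell and 13 that were not called. Rbm22, which contacts U6 RNA in the activated spliceosome, was at 75.3, 70.9, 80.4 and 107 in young and 233, 201, 220.1, 226 and 246 in old libraries (log2 fold change 1.44 ± 0.14 (SE), adjusted p = 4.71e-08 by limma). Rbm19, which acts in ribosome biogenesis, was at 38.5, 24.3, 34.3 and 19.0 in young and 67.2, 65.6, 63.9, 73.7 and 79.6 in old libraries (log2 fold change 1.29 ± 0.21 (SE), adjusted p = 3.27e-05 by limma). Both rose without overlap. Rbm28, the counterpart of a yeast nucleolar protein, was at 119.6, 108, 117 and 91.4 in young and 232, 241, 264, 256 and 243 in old libraries (log2 fold change 1.18 ± 0.12 (SE), adjusted p = 9.98e-08 by limma), and Rbm15, which recruits the N6-methyladenosine writer to RNA, was at 27.8, 52.5, 44.1 and 41.6 in young and 91.9, 102, 119.7, 98.9 and 77.4 in old libraries (log2 fold change 1.24 ± 0.19 (SE), adjusted p = 1.75e-05 by limma).

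Rbm5, Rbm6 and Rbm10, related regulators of alternative exons, were all higher, by 0.66, 0.92 and 0.63 on the log2 scale, without overlap. Rbm5 was at 189, 194, 194 and 196 in young and 295, 307, 290.0, 297 and 344 in old libraries, a young spread of 1.59% of the mean. Rbm6 was at 132, 113, 137 and 138 in young and 209.8, 281, 257, 251 and 238 in old libraries. In Rbm10, 52.6% of the 50-base sequences in the last 500 bases occur in another gene, so its value is less certain. Rbm8a, the Y14 subunit of the exon junction complex, was at 288, 269, 330.4 and 312 in young and 554, 400.4, 446, 609 and 647 in old libraries (log2 fold change 0.80 ± 0.13 (SE), adjusted p = 3.82e-05 by limma). Rbm14 (0.69), Rbm33 (0.54) and Rbm4 (0.88) also rose. Rbm33 was at 0.049 with the length trend removed (adjusted p = 0.778 by limma), where its call was lost.

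**Figure D4:**
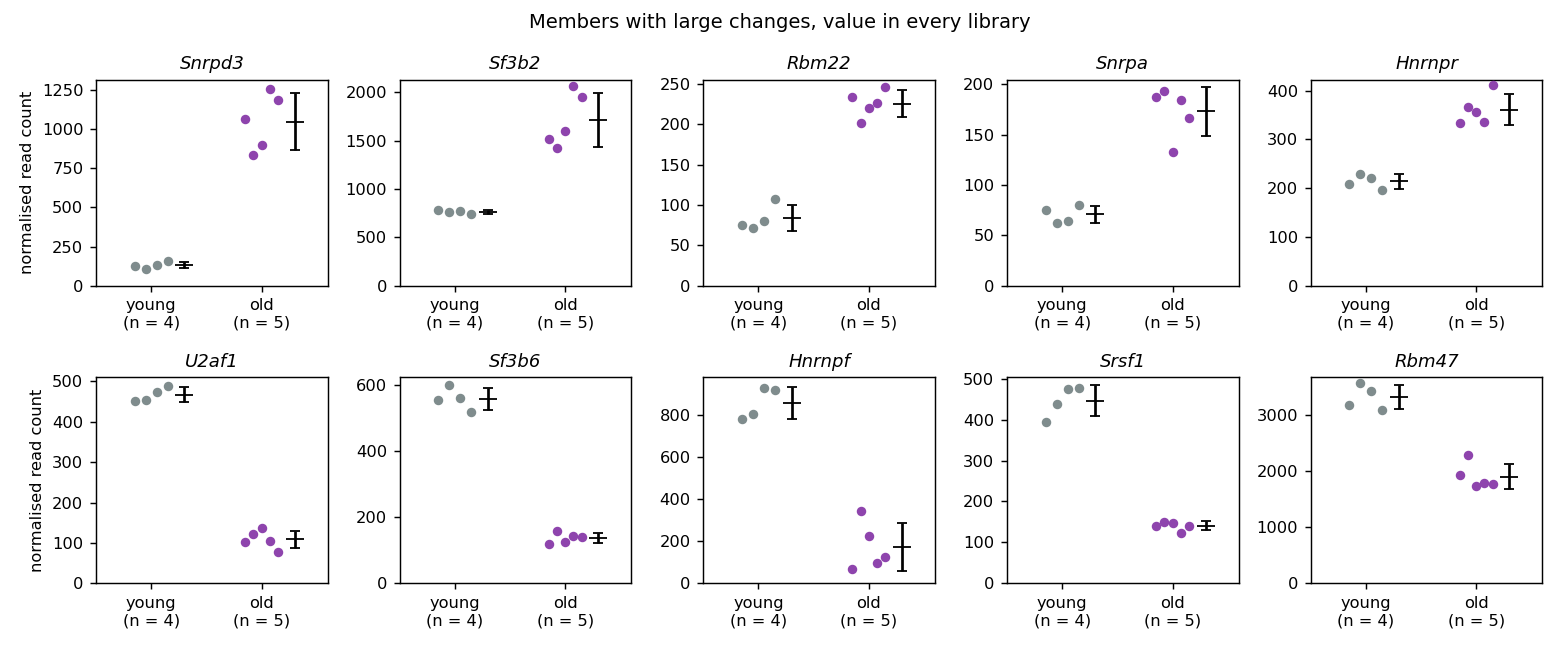
Normalised read count (y axis, linear from 0, one scale per gene) in each young (grey, n = 4) and old (purple, n = 5) library for 10 members with large changes; horizontal bars are means and vertical bars ± SD. In all 10 the groups do not overlap, with Snrpd3, Sf3b2, Rbm22, Snrpa and Hnrnpr higher and U2af1, Sf3b6, Hnrnpf, Srsf1 and Rbm47 lower in old kidneys.

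Rbm17, the splicing factor SPF45, was at 143, 185, 191 and 176 in young and 53.0, 73.3, 74.0, 72.8 and 121 in old libraries (log2 fold change -1.17 ± 0.18 (SE), adjusted p = 2.38e-05 by limma). Rbm7, a subunit of the nuclear exosome targeting complex, was at 112, 121, 107 and 100.5 in young and 74.3, 70.0, 44.6, 50.4 and 69.0 in old libraries (log2 fold change -0.85 ± 0.17 (SE), adjusted p = 0.000299 by limma). Both fell without overlap. Rbm47, an epithelial RNA-binding protein that acts with the C-to-U editing enzyme, was at 3183, 3572, 3418 and 3089.8 in young and 1938, 2283, 1734, 1788 and 1767 in old libraries (log2 fold change -0.81 ± 0.10 (SE), adjusted p = 1.12e-06 by limma). Rbm39, a U2AF-related cofactor, fell by 0.35.

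Rbm38 had the largest fall of all members by log2 fold change (-2.60), at few reads. It was at 22.1, 24.3, 29.4 and 19.9 in young and 1.18, 9.84, 5.07, 2.80 and 1.06 in old libraries, and in the old libraries these values were 1 to 9 reads. Rbm12b2, similarly low, fell by 1.61. The size of both changes depends on the pseudocount of 1. Across alternatives Rbm38 ranged from -3.01 to -1.76 and Hnrnpf from -2.84 to -2.27, so Rbm38 did not hold the largest fall in all of them. Rbm3, a cold-induced protein, was at 282, 212, 250.0 and 259.8 in young and 140.3, 141, 143, 182 and 153 in old libraries (log2 fold change -0.72 ± 0.12 (SE), adjusted p = 5.9e-05 by limma), and Cirbp, the related cold-inducible gene outside the rule, was lower as well (-0.51, a call lost in 6 of 24 alternatives).

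Closely related Rbm genes did not always move together. Rbm4b was at 95.0, 109.8, 131 and 136 in young and 56.6, 103, 85.2, 58.8 and 60.5 in old libraries and fell by 0.72 with overlapping groups. Rbm4, its neighbour on chromosome 19, was at 10.6, 9.72, 17.6 and 19.9 in young and 30.6, 25.2, 29.4, 25.2 and 22.3 in old libraries and rose by 0.88. Rbm4 overlaps another gene on its strand and shares 57.5% of its 50-base sequences with other genes, none in its last 500 bases. The gene that overlaps it is not Rbm4b, which lies on the opposite strand and overlaps no gene on its own. The uncalled Rbm genes included Rbm25 (0.02) and Rbm26 (-0.09), with log2 fold changes from -0.40 (Rbm43) to 0.69 (Rbm42) in all, and in Rbm42, where all 50-base sequences in the last 500 bases are shared, the value is not certain.

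Fold change and transcript length moved together in the members as in all genes. Spearman's rank correlation of log2 fold change with the longest annotated transcript (GENCODE vM21) was 0.282 over 111 members and 0.275 over 12455 genes. These are descriptions across genes of the same 9 libraries, and genes are not independent replicates. It was 0.582 in hnRNPs, 0.299 in core snRNP proteins, 0.218 in Rbm genes and -0.03 in the 10 SR proteins. Members that were higher had a median length of 3784 bases, members that were lower one of 2679 bases and uncalled members one of 3424 bases. With the length trend removed from each library, 32 members were higher and 37 lower, of which 27 and 32 were also called in the same direction without its removal. Besides the members named above with a call lost there, Hnrnpdl (-0.19), Hnrnpul2 (0.19), Prpf4b (0.22) and Rbm39 (-0.20) were no longer called.

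**Figure D5:**
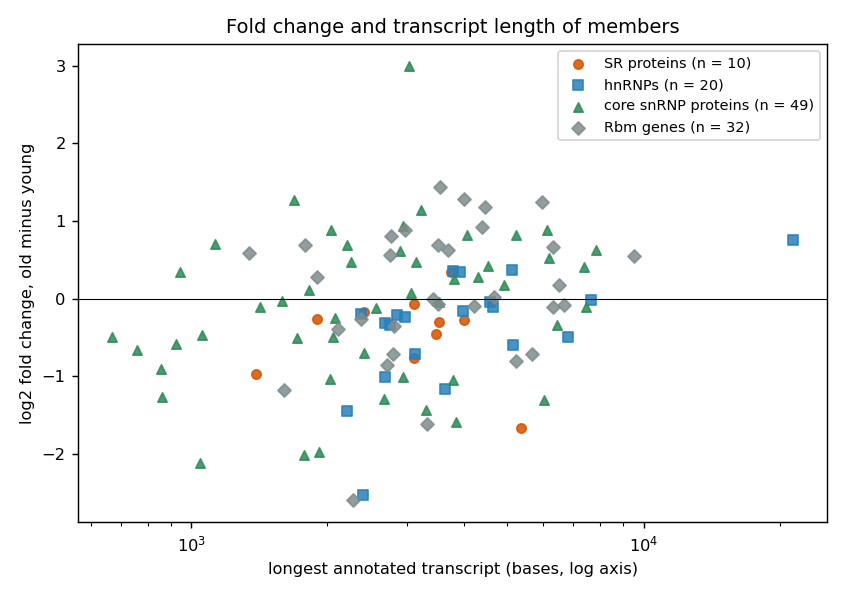
log2 fold change (old minus young, y axis) against the longest annotated transcript in bases (x axis, log scale) for the 111 members tested; colours and shapes give the class. The short Sm and LSm genes lie mostly below 0, and Snrpd3, at 3.00, and Hnrnpr, with the longest transcript, stand away from the rest.

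As a share of all reads in the table, members took 0.593 to 0.655% in young and 0.518 to 0.570% in old libraries, without overlap. Mitochondrial genes took a larger share in the same old libraries. Of reads outside mitochondrial genes, members took 0.844 to 0.898% and 0.831 to 0.896%, which overlapped. By class, the share of all reads was lower in every old library for SR proteins (0.0859 to 0.101% and 0.0661 to 0.0746%), hnRNPs (0.174 to 0.192% and 0.127 to 0.158%) and Rbm genes (0.140 to 0.154% and 0.117 to 0.129%), and overlapped for core snRNP proteins (0.193 to 0.211% and 0.199 to 0.209%). Of reads outside mitochondrial genes, the share was lower in every old library for SR proteins alone (0.122 to 0.141% and 0.106 to 0.120%). It overlapped for hnRNPs (0.247 to 0.265% and 0.204 to 0.249%) and Rbm genes (0.195 to 0.212% and 0.189 to 0.203%), and was higher in every old library for core snRNP proteins (0.275 to 0.290% and 0.318 to 0.333%). Without Rbm47 the Rbm genes took 0.108 to 0.114% of these reads in young and 0.133 to 0.149% in old libraries.

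The spread between libraries was modest. The median coefficient of variation of the members was 11.5% in young and 15.4% in old libraries, against 12.9% and 19.5% over all genes tested. Old replicate 2 was the old library nearest the young mean in 32 of 76 called members (42.1%), against 37.6% of all called genes, and old replicate 5 was the farthest in 34.2%, against 28.4%. Without old replicate 2, 32 members were higher and 44 lower.

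Other genes of the splicing machinery, from lists that the symbol rule does not take, were counted in the same way. Of 61 further core spliceosome genes 22 rose and 11 fell (median log2 fold change 0.16), so that 54.1% were called, against 59.7% of all genes tested. The helicase Aqr (1.14), the helicase Ddx23 (1.07) and the cap-binding protein Ncbp1 (1.07) rose, and Bud31 (-1.08), the branch point binding protein gene Sf1 (-1.05) and Isy1 (-0.85) fell. The U11 small nuclear RNA gene Rnu11, of the minor spliceosome, was between 4.53 and 12.7 in young and 70.9 and 94.4 in old libraries (log2 fold change 3.35, adjusted p = 6.62e-09 by limma). No young library held more than 13 reads of Rnu11, and across alternatives its log2 fold change was 2.26 to 3.59. The libraries were primed on poly(A) tails, and whether these reads follow the level of U11 RNA was not tested.

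Of 27 SR-related proteins, SR kinases and exon junction genes, 12 rose and 7 fell (median 0.23), or 70.4% called, against 59.7% of all genes. The kinases that phosphorylate SR proteins included Clk2 (1.44), Dyrk1a (1.02), Clk1 (0.86), Clk4 (0.53) and Srpk2 (0.37), which were called higher, and Clk3 (-0.03) and Srpk1 (0.17), which were not called. The call for Srpk2 was lost in 8 of 22 alternatives. Srrm2 was higher (0.91), and the paralogues Tra2a (0.47) and Tra2b (-0.81) were called in opposite directions. Exon junction genes split as well, since Eif4a3 was higher (0.63), as was Rbm8a (0.80), while its binding partner Magoh (-0.84), Magohb (-1.13) and Casc3 (-0.57) were lower.

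Of 39 other splicing regulators tested, 14 rose and 8 fell (median 0.23, 56.4% called, against 59.7% of all genes tested). The other 2 of the 41 listed were not tested. Ewsr1 (-1.72), Pcbp1 (-1.41), Nono (-0.71) and the epithelial regulator Esrp2 (-0.55) fell, and Safb (0.95), Khdrbs1 (0.92), Ptbp1 (0.66) and Mbnl1 (0.66) rose. Of 16 genes of the SMN complex and of Sm protein assembly, 4 rose and 5 fell (median 0.16, 56.2% called, against 59.7% of all genes). Smn1 (0.73), Tgs1 (0.94), which trimethylates the cap of small nuclear RNAs, and the arginine methyltransferase Prmt5 (0.63) rose, whereas Wdr77 (-1.19) and Coprs (-1.43), partners of Prmt5, fell. Gemin6 (-2.92) fell at few reads, with 14.5 to 20.4 normalised read counts in young and 0 to 9.84 in old libraries. The size of this change depends on the pseudocount, with -4.44 at a pseudocount of 0.1 and -1.69 at one of 5.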

How the data were processed

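RNA from kidneys of wild-type mice was sequenced in 4 young and 5 old libraries. Per the labels, 500.0 ng of total RNA (integrity number 7.4 to 7.6, mean 7.5) was made into stranded 3′ end libraries by oligo(dT) priming, with a kit of which the labels and the study's methods name different versions. The submitters' processing notes name FastQC 0.11.7, TopHat2 2.0.10, Bowtie 1.0.0, SAMtools 0.1.19, HTSeq 0.6.1 and DESeq2, and the study's methods give the build GRCm39 and the GENCODE vM26 annotation. The deposited values are a signal, read counts per gene that the authors divided by 1 size factor per library. All values (100%) were whole multiples of the smallest value in their library, within 0.01, so whole reads were recovered. The lowest gene mean was 4.49, which shows that sparse genes were removed beforehand, by a rule not given in the sources used here.

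Old and young libraries were compared with limma 3.58.1 (lmFit, eBayes with trend, R 4.3.3) on log2(normalised count + 1), in all 9 libraries without covariates. The filter asked for 10 or more normalised counts in 4 or more libraries, Benjamini-Hochberg adjustment ran over the 12667 genes that passed, and a gene was called at an adjusted p under 0.05. Fold changes on this scale understate changes of genes with low counts. The labels do not say that the libraries of a group came from separate animals one by one, so p-values measure only the spread between these libraries. The floor was set at 3 reads, 4.72e-05 to 6.69e-05% of a library's reads, which covers counting error only, since the reads carry no molecular identifiers that were used here. The fits were tested on simulated data.

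The members, lists and tests were chosen with earlier results of these data known. Genes were named by rule as the 2 largest rises and falls per symbol class among called members averaging 50 or more normalised counts, a panel of 12 genes (Srsf1, Srsf2, Srsf3, Hnrnpa1, Hnrnpa2b1, Hnrnpk, Sf3b1, U2af1, U2af2, Prpf8, Snrpn and Rbm3), and members at the ends of a range or called against most of their class. Subunits of the rings and complexes, relatives of named members and genes outside the symbol rule were named after their values were seen. Transcript length, shared 50-base sequences and positions were taken from GENCODE vM21 (GRCm38, an older build than the authors'), matched by symbol for 12856 of 13081 genes (98.3%) and all 112 members. Promoters came from RefSeq on GRCm38.p6. Alternatives were pseudocounts of 0.1 and 5, no filter, a mean of at least 100, TMM factors, totals, totals without mitochondrial genes, robust eBayes, edgeR 4.0.16 and DESeq2 1.42.0 on whole reads (7649 and 7532 genes called), thinning to 4486406 reads, removal of a length or GC trend, genes without shared sequence or overlap, and each library left out.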

Additional observations from a re-analysis of the deposited data

Results flagged for a closer look

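In 4 of 174 groups of libraries examined among the members, 1 library stood apart from the rest of its age group, measured as the distance to its nearest neighbour divided by the range of the group on the log2 scale (Dixon's ratio). Chance gives about 1 in 20, or 8.7 groups. Hnrnpc in young replicate 4 was at 520.6 normalised read counts, with the other young libraries at 596 to 612 (ratio 0.834). Hnrnpul1 in old replicate 5 was at 559, below the other old libraries at 694 to 729 and nearest to the young ones (ratio 0.815). Lsm7 in old replicate 1 was at 365, above the other old libraries at 282 to 293 (ratio 0.849). Prpf3 in old replicate 5 was at 93.4, above 68.1 to 72.0 in the others (ratio 0.823). Hnrnpul1, Lsm7 and Prpf3 were still called higher without the library concerned.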

How the results depend on the processing

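Of the 76 called members, 55 kept direction and call under every alternative that tested them, 20 lost the call in at least 1 and 1, Hnrnpr, reversed. Calls stood at 30 to 33 members higher and 39 to 44 lower when 1 library was left out (SR proteins higher 0 to 1, since Srsf10 lost its call without young replicate 1 or 4). On the whole reads edgeR called 33 members higher and 41 lower, and DESeq2 33 and 42. With libraries scaled to reads outside mitochondrial genes, the median over all genes shifted by 0.14 and members were split 37 higher and 36 lower. There, the share of all called genes that were higher went from 48.9% to 58.5%, and Lsm2 (0.11), Prpf8 (0.038), Snrpd2 (0.028) and Srsf11 (0.069), not called in either, changed sign. With the length trend removed, 2 hnRNPs were higher, and the reversals were Hnrnpr (-0.087), Lsm2 (0.27), Snrpd2 (0.21), Srsf11 (0.030) and Srsf7 (0.028). Lsm2 was at 0.023 by edgeR, at 0.019 by DESeq2 and at -0.19 to 0.093 when 1 library was left out, and Sf3a3 at -0.029 to 0.23. The cause of these reversals was not tested. Other alternatives tested fewer genes. Above a mean of 100 normalised counts, 7 Rbm genes were higher and 4 lower. Among genes that share no 50-base sequence, only 33 members were tested, of which 9 were higher and 13 lower (SR proteins higher 0, hnRNPs higher 0 and lower 2, core snRNP proteins higher 5 and lower 4, Rbm genes higher 4 and lower 2). Srsf10 and the 4 hnRNPs that rose were not among them. Without genes that overlap on their strand, 2 hnRNPs and 7 Rbm genes were higher. Depth limits Rbm38, Rbm12b2, Rbm41 and Gemin6, which had few reads. No paired analysis was possible because the labels carry no replicate numbers, and library numbers follow only the listed order.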
